A study of Mus musculus with 8 samples.

Results

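Nuclear genes of respiratory complexes II to V were compared between kidneys of wild-type (WT) mice and of Ctrp1-/- (KO) mice. The genes were taken from the deposited expression table as its protein-coding rows with symbols of the Sdha to Sdhd, Sdhaf, Uqcr, Uqcc, Cox4 to Cox8, Cyc1, Cycs and Atp5 kinds. This gave 52 genes of 23386 rows, and 50 of them were expressed highly enough to be tested among 14030 genes. By role they were 4 subunits of complex II, 9 of complex III, cytochrome c and 17 subunit genes of complex IV. ATP synthase (complex V) gave 5 subunits of the F1 part and 10 of the Fo part. Another 6 genes were grouped as assembly or coupling factors.

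These complexes sit in the inner mitochondrial membrane. Complex II passes electrons from succinate to ubiquinone, complex III passes them on to cytochrome c, and complex IV gives them to oxygen. Complexes III and IV pump protons, and ATP synthase lets the protons back through its Fo rotor to make ATP in the F1 head. Most subunits are encoded in the nucleus, and a few of complexes III, IV and V in mitochondrial DNA. In the kidney the tubule segments that reabsorb salt and solutes, above all the proximal tubule and the thick ascending limb, are dense in mitochondria and draw most of their ATP from this chain.

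RNA came from the whole left kidney of mice aged 49 weeks, 4 WT and 4 KO animals, with 1 library per animal. The KO animals lack both copies of Ctrp1 (C1qtnf1), which encodes a secreted relative of adiponectin; 679 bases of exon 4 of the gene's 4 exons are deleted in the germ line, not in a chosen cell type. The allele was made in 129S5/Sv stem cells and crossed for more than 6 generations onto C57BL/6J, and the groups are littermates from crosses of heterozygous parents. The labels name no treatment of either group. The labels name these biological replicates, do not give the sex of each animal, and describe no step that separated cell types.

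The libraries held 15027400 to 19256378 counted reads, of which 1.65% to 1.79% fell on the 52 genes. Values are scaled FPKM (fragments counted per gene length and library depth, each library then divided by a median-ratio factor), which are levels per length. Across genes, the rank correlation of library pairs ran from 0.982 to 0.993, and no library repeated another (chi-square per degree of freedom at least 6.46 within groups). C1qtnf1 stood at 3.64 ± 0.880 in WT and 0.326 ± 0.174 in KO (SD, n = 4), a log2 fold change of -2.32 with an adjusted p of 0.000767 by limma, the direction its label gives. Markers of the kidney were present: Slc34a1, the phosphate transporter of the proximal tubule, was at 2619 to 3003 scaled FPKM in WT and 2324 to 2546 in KO, and Umod of the thick ascending limb at 1119 to 1675 and 1343 to 1670.

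No gene of complexes II to V passed the threshold between KO and WT kidneys (0 of 50 at an adjusted p under 0.05 by limma, against 0.0499% of all tested genes, 0.0214% lower and 0.0285% higher), and the lowest adjusted p by limma was 0.193. The point estimates were small and mostly on the lower side. They were below 0 for 41 of the 50 genes (82%, against 50.4% of all tested genes), with a median log2 fold change of -0.06 against -0.00 over all genes. At an unadjusted p under 0.05, 9 genes stood lower in KO (18%, against a background of 8.25%) and 1 stood higher (2%, against 7.18%). The 9 were Uqcr11, Cox6a1, Cox4i1, Cox5a, Atp5d, Atp5e, Atp5g1, Atp5g2 and Atp5sl, and the 1 was Cycs. A fit of limma voom to the recovered whole reads also gave 0, 9 and 1.

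Nearly all of these genes are highly expressed, and highly expressed genes as a whole stood lower in KO. Among the 3291 genes with a mean of at least 20 scaled FPKM, 59.6% had a point estimate below 0, 15.8% were lower at an unadjusted p under 0.05 and the median log2 fold change was -0.03. The 44 genes of the complexes above that level gave 38 below 0 (86.4%), 9 lower at an unadjusted p under 0.05 (20.5%), 1 higher against a background of 8.05%, and a median of -0.06. The share lower at that p was thus nearer to its background at this level. The lean to the lower side, read against 0, also varied with scaling. After upper-quartile scaling, which moved the median of all genes up to 0.04, the median of the complexes was -0.02 with 34 of 50 below 0. In that fit 7 of the 50 were lower at an unadjusted p under 0.05, against 4.68% of all tested genes. After quantile normalization the median was -0.02 against -0.0035 over all genes, with 31 of 50 below 0. There 7 were lower at that p, against 7.83% of all tested genes. Both of these backgrounds are not matched for level. The 95% intervals of the 44 genes lay between 76.0% and 129.9% of the WT level, and their median width to each side was 9.59%, so differences of a few percent were not detectable with these libraries. Markers of mitochondria-rich tubule segments also differed in point estimate, and none passed the threshold. Of 8 proximal tubule markers, 3 were lower at an unadjusted p under 0.05 with no overlap of the groups, namely Slc34a1, the glucose transporter Slc5a2 and the organic anion transporter Slc22a8 (log2 fold changes of -0.21, -0.21 and -0.49, limma adjusted p = 0.213, 0.155 and 0.137). Among all genes above 20 scaled FPKM, 15.8% were lower at that p and 8.39% were lower without overlap. Slc7a13, a transporter of the late proximal tubule, was higher without overlap (0.41, limma adjusted p = 0.213), as were 4.34% of all tested genes. The list's median was -0.13. The summed level of the 8 was 4020 to 4551 in WT and 3774 to 4097 in KO. Of 5 thick ascending limb markers, 4 had point estimates above 0 and 1 of them, Cldn10, reached that p, as did 7.18% of all tested genes on the higher side. The list's median was 0.18, with sums of 1420 to 2139 in WT and 1711 to 2162 in KO. All 4 distal convoluted tubule markers had point estimates below 0, with a median of -0.19, and 0 reached an unadjusted p under 0.05. Their sums were 358 to 406 in WT and 307 to 402 in KO. None of these markers was at 0, and their part in the values of complexes II to V was not tested. RNA of a whole organ was measured, and fewer cells of a type and less RNA per cell cannot be told apart in it.

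**Figure D1:**
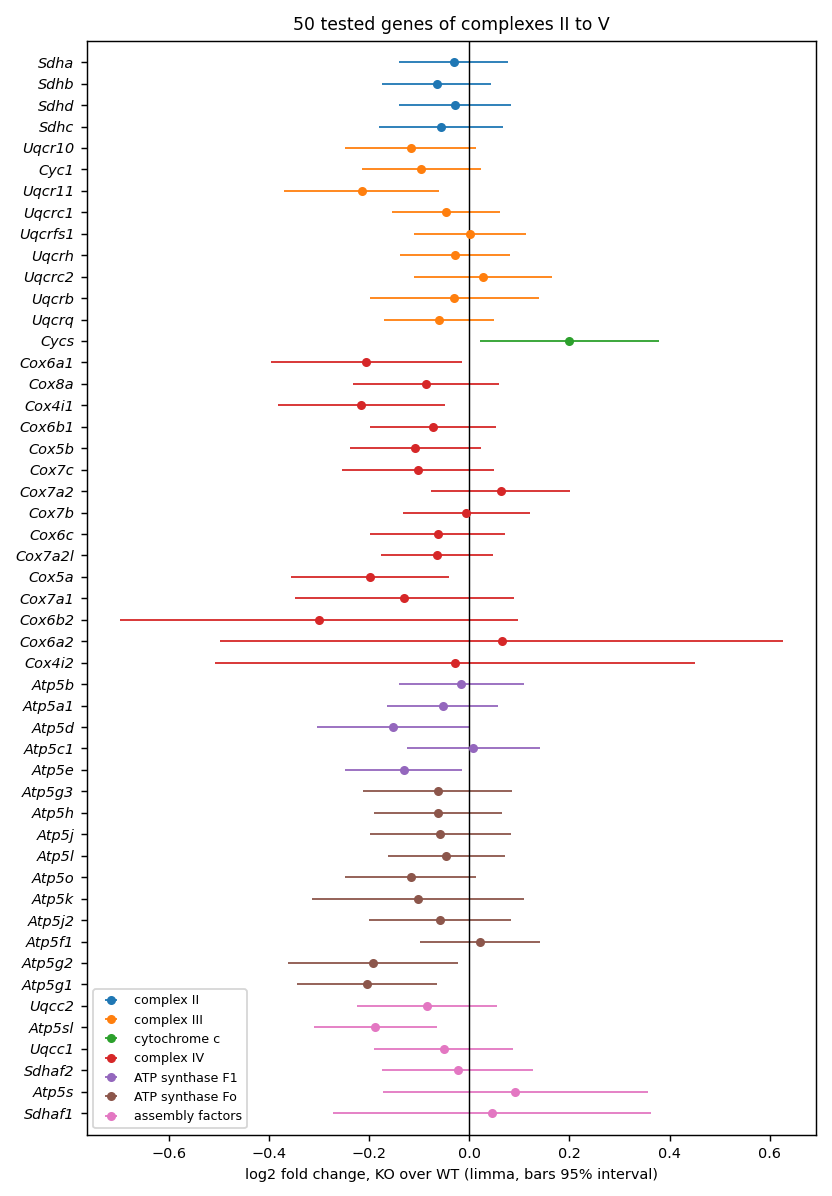
Estimated log2 change, KO relative to WT, for each of the 50 tested genes, by role, on the horizontal axis, with 95% intervals from limma as bars. Points lie to the left of 0 for 41 genes, and the intervals of 10 genes leave out 0, 9 of them on the lower side.

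The genes are spread over 19 chromosomes. Of the 4 on chromosome 11, which carries the deleted gene, Atp5h lay 3.01 Mb from C1qtnf1, with a log2 fold change of -0.06 and an adjusted p of 0.622 by limma, and Atp5g1 lay 22.4 Mb from it.

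The promoters of such genes are known for sites of NRF1, of the ETS factor GABP (NRF2), of YY1, of the estrogen-related receptors (ERR) and of SP1, and these motifs were looked for on both strands of the RefSeq promoters of GRCm38.p6, 250 bases before to 50 after the start. A RefSeq promoter was found for 42 of the 52 genes, 46 promoters in all. GCGCATGCG of NRF1, which matches both strands with an overlap where it extends to a palindrome, was present in 15.2% of them, against 1.75% of the 32851 promoters of all genes. CCGGAAG of ETS factors was present in 30.4% against 8.86%, AAGATGGC of YY1 in 13% against 2.75%, TCAAGGTCA of the ERRs in 4.35% against 0.423% and GGGCGG of SP1 in 41.3% against 35.7%. The NRF1 motif was shortened by 1 base after its matches were seen, so its share was not fixed beforehand. A match is a run of letters, not shown binding. The windows show the 7 genes with the NRF1 motif and 1 example each for the ETS, YY1 and ERR motifs, 5′ to 3′ on the strand of the gene, with the motif or its reverse complement in capitals.
Atp5g2, NRF1, chr15:102671070-102671099, minus strand: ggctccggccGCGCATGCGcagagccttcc
Cox6a1, NRF1, chr5:115349101-115349130, minus strand: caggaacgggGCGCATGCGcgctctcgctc
Uqcr11, NRF1 in reverse, chr10:80406807-80406836, minus strand: atcgccttcaCGCATGCGCtatacgtctgc
Cycs, NRF1 in reverse, chr6:50566611-50566640, minus strand: catgctagctCGCATGCGCgcgcacaaacc
Atp5k, NRF1, chr5:108434430-108434459, minus strand: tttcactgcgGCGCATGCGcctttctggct
Atp5l, NRF1 in reverse, chr9:44920963-44920992, minus strand: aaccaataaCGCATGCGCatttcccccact
Uqcrc1, NRF1, chr9:108936668-108936697, plus strand: actccgctctGCGCATGCGcagcgcggctc
Uqcr11, ETS, chr10:80406869-80406898, minus strand: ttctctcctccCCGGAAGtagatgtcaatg
Atp5sl, YY1, chr7:25619429-25619458, plus strand: cgttacctggcAAGATGGCggcgcccagag
Atp5g3, ERR in reverse, chr2:73911359-73911388, minus strand: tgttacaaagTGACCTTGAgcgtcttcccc
The NRF1 motif thus occurred at 7 of the 42 genes searched (16.7%). These were 3 of the 8 searched among the 9 genes lower at an unadjusted p under 0.05 (Atp5g2, Cox6a1 and Uqcr11, with no promoter for Cox4i1), Cycs, the 1 that stood higher, and 3 above that p (Atp5k, Atp5l and Uqcrc1, with log2 fold changes of -0.10, -0.05 and -0.05).

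Complex II, which is also the succinate dehydrogenase of the citric acid cycle, had the narrowest spread of fold changes. All 4 subunits had point estimates between -0.06 and -0.03, and none reached an unadjusted p under 0.05. Sdha (ENSMUSG00000021577), the flavoprotein that oxidizes succinate, was at 345, 357, 369 and 349.9 scaled FPKM in the 4 WT kidneys and at 366, 339.8, 336 and 349.7 in the 4 KO kidneys. The groups overlapped over nearly their whole range. Its log2 fold change was -0.03 (SE 0.05, limma adjusted p = 0.785), and its sign turned to 0.01 after upper-quartile scaling and 0.04 after quantile normalization. Sdhb (ENSMUSG00000009863), the iron-sulfur subunit, was at 278, 278, 271 and 278 in WT and at 278, 251, 256 and 273 in KO. Here KO replicates 2 and 3 lay below every WT kidney, and the other 2 KO kidneys did not. The difference of -0.06 (SE 0.05, limma adjusted p = 0.545) turned to 0.0026 after quantile normalization. Sdhc, a membrane anchor, averaged 88.8 ± 1.62 in WT and 85.5 ± 5.88 in KO.

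Complex III had 1 of its 9 subunits among the genes at an unadjusted p under 0.05. Uqcr11 (ENSMUSG00000020163), a small supernumerary subunit, was at 323, 320.5, 269 and 307 scaled FPKM in WT and at 268, 265, 242 and 273 in KO. WT replicate 3 lay inside the range of the KO kidneys, and the other 3 WT kidneys lay above all 4 of them. The means were 305 ± 24.99 and 262 ± 13.7, with a log2 fold change of -0.21 (SE 0.07, unadjusted p = 0.0115, limma adjusted p = 0.218). Uqcr10, another small subunit and the gene of highest level in the complex, was at 379.5, 364, 324 and 354 in WT and at 343, 325, 316 and 326 in KO. Its groups also met at WT replicate 3, and the log2 fold change was -0.12 (SE 0.06, limma adjusted p = 0.365).

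Cyc1, the cytochrome c1 that hands electrons to cytochrome c, was at 336, 324, 291 and 319.9 in WT and within 295 to 299 in all KO kidneys. WT replicate 3 lay below every KO kidney and the other 3 WT kidneys above every one. Its log2 fold change of -0.10 (SE 0.05, limma adjusted p = 0.406) turned to 0.02 once trends with GC content and gene length were removed. The Rieske protein Uqcrfs1 and the core protein Uqcrc2, given here for their roles, had log2 fold changes of 0.00 and 0.03, and were the 2 of 9 subunits with point estimates above 0.

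Cycs (ENSMUSG00000063694), the somatic cytochrome c that carries electrons from complex III to complex IV, was the single gene of the 50 that stood higher in KO at an unadjusted p under 0.05. It was at 98.04, 79.98, 85.07 and 93.56 scaled FPKM in WT and at 115, 97.6, 94.9 and 103 in KO. The groups overlapped, since WT replicate 1 lay above KO replicates 2 and 3. The mean was 14.9% higher in KO, with a log2 fold change of 0.20 (SE 0.08, unadjusted p = 0.0310, limma adjusted p = 0.280). The transcript has processed copies across the genome: 28.5% of its runs of 50 bases occur in transcripts of 76 other genes, so its count depends on how shared reads were treated. With GC and length trends removed, the value was 0.12.

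Complex IV, cytochrome c oxidase, had the largest summed difference of the multi-subunit groups. The sum over its 17 genes was 5214, 5305, 4614 and 5013 scaled FPKM in WT and 4835, 4426, 4520 and 4705 in KO. The groups overlapped through WT replicate 3, which lay below KO replicates 1 and 4, and the mean sum was 8.24% lower in KO. The corresponding sums were 2.90% lower for complex II, 4.76% for complex III, 2.69% for F1, 4.75% for Fo and 6.02% for the assembly factors. Such a sum weighs genes by level, and in complex IV the largest mean differences were those of Cox6a1 and Cox4i1. Their means were 1163 and 653 in WT and 1002 and 561 in KO. Of the 15 tested genes of complex IV, 13 had point estimates below 0 and 3 reached an unadjusted p under 0.05.

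Those were Cox4i1, Cox6a1 and Cox5a. Cox4i1 (ENSMUSG00000031818), the common isoform of the subunit that binds nucleotides and packs against the catalytic core, was at 683, 717, 573 and 640.1 in WT and at 583, 523, 578 and 559.7 in KO. WT replicate 3 lay among the KO kidneys and the other 3 WT kidneys above them. The mean was 14.1% lower in KO, at a log2 fold change of -0.22 (SE 0.07, unadjusted p = 0.0164, limma adjusted p = 0.239). Cox6a1 (ENSMUSG00000041697), the common isoform of subunit 6a and after Atp5b the gene of highest level, was at 1291, 1225, 967 and 1168 in WT and at 1018, 979.8, 994 and 1018 in KO. WT replicate 3 was the lowest of all 8 kidneys for this gene, while the other 3 WT kidneys were the highest. Its log2 fold change was -0.21 (SE 0.09, unadjusted p = 0.0374, limma adjusted p = 0.297).

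Cox5a (ENSMUSG00000000088), an early-assembling matrix-side subunit, was at 102, 110.0, 92.8 and 96.3 in WT and at 94.9, 78.8, 86.4 and 89.0 in KO. Only WT replicate 3 and KO replicate 1 overlapped. The log2 fold change was -0.20 (SE 0.07, unadjusted p = 0.0195, limma adjusted p = 0.250). Above that p, Cox8a was at 884 ± 58.4 in WT and 832 ± 41.8 in KO, and Cox6b1 at 543 ± 11.1 and 517 ± 32.3. Cox7a2 was 1 of the 2 genes of the complex with a point estimate above 0, at 249, 233, 267 and 251 in WT and 281, 249.7, 246 and 269 in KO (log2 fold change 0.06, limma adjusted p = 0.651).

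**Figure D2:**
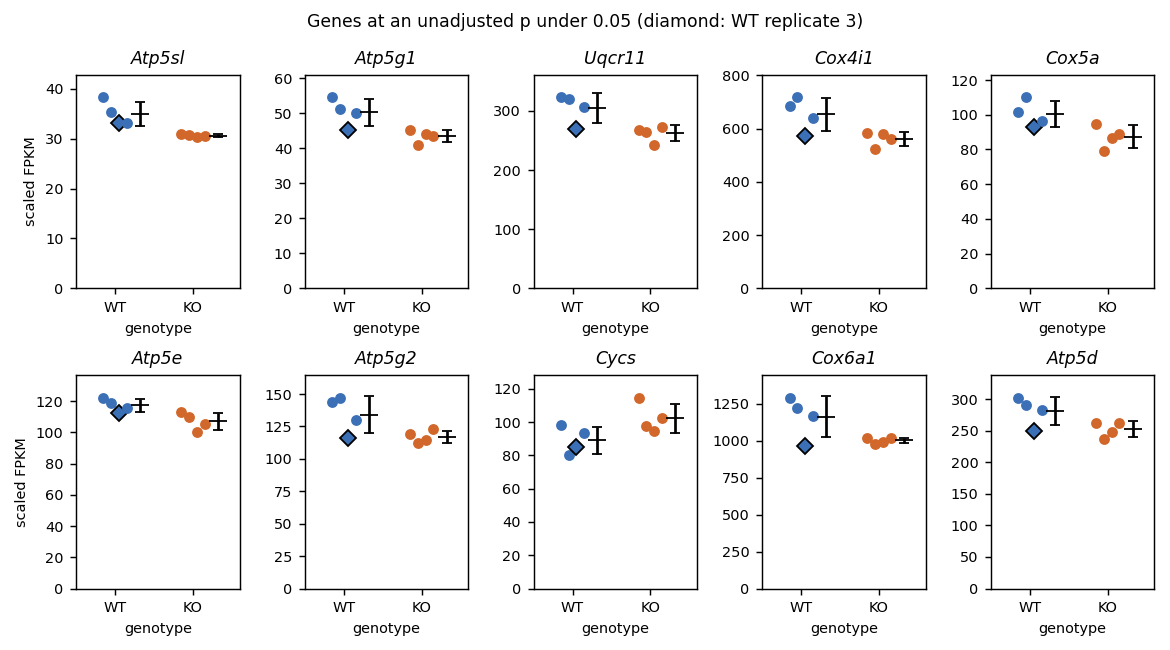
Scaled FPKM (vertical axes, from 0) of the 10 genes at an unadjusted p under 0.05 in each of the 4 WT and 4 KO kidneys, with WT replicate 3 drawn as a diamond and the mean and SD of each group as bars. In 8 of the 9 genes that stood lower in KO the diamond lies at or below the highest KO kidney, while the other 3 WT kidneys lie above every KO kidney in all 9.

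In the F1 head of ATP synthase, 4 of 5 subunits had point estimates below 0 and 2 of them reached an unadjusted p under 0.05. The catalytic beta subunit Atp5b (ENSMUSG00000025393), the gene of highest level, was at 1709, 1759.9, 1654 and 1689.8 scaled FPKM in WT and at 1765, 1621, 1642 and 1714 in KO. The highest and the lowest kidney were both KO. The log2 fold change was -0.02 (SE 0.06, limma adjusted p = 0.916), with values of 0.03 after upper-quartile scaling, 0.02 after quantile normalization and 0.02 with GC and length trends removed. The alpha subunit Atp5a1 averaged 813 ± 22.4 in WT and 784 ± 24.4 in KO, a log2 fold change of -0.05 (limma adjusted p = 0.633) that turned to 0.0065 with those trends removed.

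The small central-stalk subunits delta and epsilon both stood lower at an unadjusted p under 0.05. Atp5d was at 302, 290.2, 249 and 284 in WT and at 263, 237, 248 and 263 in KO, a log2 fold change of -0.15 (SE 0.07, unadjusted p = 0.0489, limma adjusted p = 0.321). WT replicate 3 was again in the KO range, and with GC and length trends removed the value was -0.06. Atp5e was at 122, 119, 112 and 115 in WT and at 113, 109, 100.2 and 106 in KO. Its groups touched only at WT replicate 3 and KO replicate 1, and the log2 fold change was -0.13 (SE 0.05, unadjusted p = 0.0307, limma adjusted p = 0.280). Whether the differences of Atp5d and Atp5b were themselves unequal was not tested.

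In the Fo part, 9 of 10 genes had point estimates below 0, and 2 of the 3 genes for subunit c reached an unadjusted p under 0.05. Subunit c forms the rotor ring, and its 3 genes encode the same mature protein behind different import sequences. Atp5g1 (ENSMUSG00000006057) was at 54.58, 51.38, 45.27 and 49.996 scaled FPKM in WT and at 45.38, 41.08, 44.12 and 43.50 in KO. The groups overlapped by the width of WT replicate 3 against KO replicate 1 alone. The mean was 13.5% lower in KO, at a log2 fold change of -0.20 (SE 0.06, unadjusted p = 0.00879, limma adjusted p = 0.209).

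Atp5g2 was at 144, 147, 116 and 129.8 in WT and at 119, 112, 115 and 123 in KO, a log2 fold change of -0.19 (SE 0.08, unadjusted p = 0.0309, limma adjusted p = 0.280). Atp5g3, the form with most of the transcript, was at 716, 724, 759 and 712 in WT and at 757, 633, 665 and 738 in KO, a log2 fold change of -0.06 (SE 0.07, limma adjusted p = 0.675). For Atp5g3, WT replicate 3 was the highest of the 8 kidneys, the reverse of its place in Atp5g1 and Atp5g2. As shares of the 3 genes' summed scaled FPKM, Atp5g3 held 78.3% to 82.5%, Atp5g2 12.6% to 16.0% and Atp5g1 4.81% to 5.97% over the 8 kidneys, and the ranges of the genotypes overlapped for each. Atp5o, the OSCP subunit that ties the stalk to the head, averaged 208 ± 7.56 in WT and 192 ± 12.9 in KO (log2 fold change -0.12, limma adjusted p = 0.365).

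Among the 6 genes grouped as assembly and coupling factors, Atp5sl (ENSMUSG00000057229) had the lowest p of all 50 genes. It is here by its symbol, which names it as a relative of the ATP synthase coupling factor Atp5s. The symbol does not show that it serves complexes II to V. It was at 38.3, 35.5, 33.1 and 33.2 scaled FPKM in WT and at 31.0, 30.7, 30.4 and 30.5 in KO. Every KO kidney lay below every WT kidney, and the 4 KO values were closely spaced. The mean was 12.5% lower in KO, with a log2 fold change of -0.19 (SE 0.05, unadjusted p = 0.00691, limma adjusted p = 0.193). It was the single gene of the 50 whose groups did not overlap (2% lower, against 4.28% of all tested genes and 8.39% of those above 20 scaled FPKM); 0 genes were separate on the higher side, against 4.34%. The complex III factors Uqcc2 and Uqcc1 averaged 45.9 ± 3.75 and 23.5 ± 1.38 in WT and 43.2 ± 1.33 and 22.6 ± 1.35 in KO. For the complex II factor Sdhaf1, 69.0% of the transcript's runs of 50 bases are shared with another gene, so its 34 to 65 reads per kidney are uncertain.

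Tissue-restricted isoforms of complex IV were present at low levels beside their common partners. Cox7a1, the heart and muscle form of subunit 7a, was the most abundant of them, at 33.3, 40.2, 34.2 and 32.97 scaled FPKM in WT and 38.8, 30.8, 30.2 and 29.0 in KO. It made up 9.75% to 14.7% of the sum of Cox7a1 and Cox7a2, with WT replicate 2 at the top and KO replicate 4 at the bottom. Its log2 fold change was -0.13 (SE 0.10, limma adjusted p = 0.546).

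The other restricted isoforms held far smaller shares. Cox6b2, known from testis, was at 10.4 ± 1.71 in WT and 8.49 ± 2.35 in KO, 1.18% to 2.20% of subunit 6b transcripts. Cox6a2 of heart and muscle was at 3.72 ± 1.42 and 3.89 ± 1.26, 0.217% to 0.523% of subunit 6a, and the sign of its log2 fold change of 0.07 turned when WT replicate 2 (-0.06), WT replicate 3 (-0.03) or KO replicate 4 (-0.09) was left out. Cox4i2, the lung form that is tied to low oxygen, had 4 to 16 reads per kidney, 27 in WT and 30 in KO. It held 0.0592% to 0.209% of subunit 4 transcripts, the highest share in KO replicate 2.

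The 2 genes below the expression filter were Cox8b and Cox7b2. Cox8b, the form of subunit 8 in heart, muscle and brown fat, had 1, 0, 3 and 0 reads in WT and 8, 5, 4 and 1 in KO. The sums were 4 and 18 reads, a ratio per depth of 4.35 with an exact 95% interval of 1.43 to 17.7 for counting error only, and KO replicate 4 was within the WT range. Markers of fat were at trace levels in both groups, with 7 of 7 under the filter, a summed level of 0.251 to 4.29 in WT and 0.314 to 2.21 in KO, with the highest sum in WT replicate 3. Ucp1, which defines brown fat, was at 0.154, 0.0687, 0.342 and 0 in WT and 0.166, 0.704, 0.105 and 0.0369 in KO, 15 reads in WT and 31 in KO, highest in KO replicate 2. Of 5 skeletal muscle markers 3 were in the table, and their sums of 1.17 to 2.07 in WT and 1.21 to 1.77 in KO were mostly Mylpf. The troponin Tnnt3 had 2 reads in WT and 8 in KO, at 0.253, 0.0933, 0.107 and 0 in the 4 KO kidneys, the muscle actin Acta1 had 2 reads in WT and 0 in KO, and Cox8b was highest in KO replicate 1, as Tnnt3 was. The part of fat or muscle in the Cox8b reads was not tested. Cox7b2 had 0, 1, 0 and 2 reads in WT and 0 in each KO kidney, and 0 reads in a kidney allow up to 3.

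**Figure D3:**
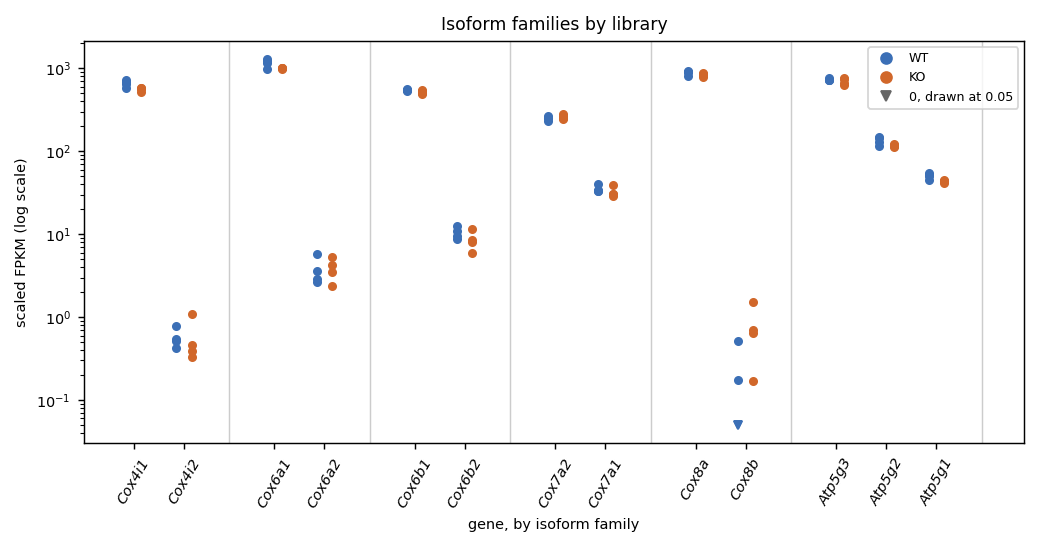
Scaled FPKM on a log scale of the isoforms of complex IV subunits and of ATP synthase subunit c in each WT and KO kidney. The common isoforms lie far above the tissue-restricted ones in every kidney, Cox7a1 comes closest to its partner at 9.75% to 14.7% of the pair, and the genotypes overlap.

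The average level of the genes varied between kidneys of a genotype. Relative to the mean of the 8 kidneys, the average over the 50 genes was 4.63%, 5.36%, -1.55% and 1.33% in the 4 WT kidneys and 2.35%, -6.53%, -5.66% and 0.753% in the 4 KO kidneys. WT replicates 1 and 2 were high, KO replicates 2 and 3 were low, and KO replicates 1 and 4 lay among the WT kidneys. KO replicate 2 or 3 was the lowest kidney for 41 of the 50 genes. The 9 genes lower at an unadjusted p under 0.05 became 5 without KO replicate 2 and 5 without KO replicate 3. They became 5 without WT replicate 1 and 3 without WT replicate 2. The shares of all tested genes were 7.43%, 7.46%, 6.34% and 5.72% in the same order. Without WT replicate 2, the 3 of 51 genes were thus near the background. Within a genotype the spread was small: above 20 scaled FPKM the median coefficient of variation was 5.17% in WT and 5.14% in KO.

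WT replicate 3 differed in direction between genes: of the 50, it was the lowest WT kidney for 28 and the highest for 11, among them Sdha and Atp5g3. It was the lowest WT kidney in 9 of the 9 genes lower at an unadjusted p under 0.05 and lay at or under the highest KO kidney in 8 of them. Without it, 13 genes stood lower at an unadjusted p under 0.05 (26%, against 12.6% of all genes, a background not matched for level). Cox6a1 then reached a log2 fold change of -0.29 and an adjusted p of 0.0659 by limma, the lowest of the 50. In that fit 0 of the 50 passed the threshold.

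**Figure D4:**
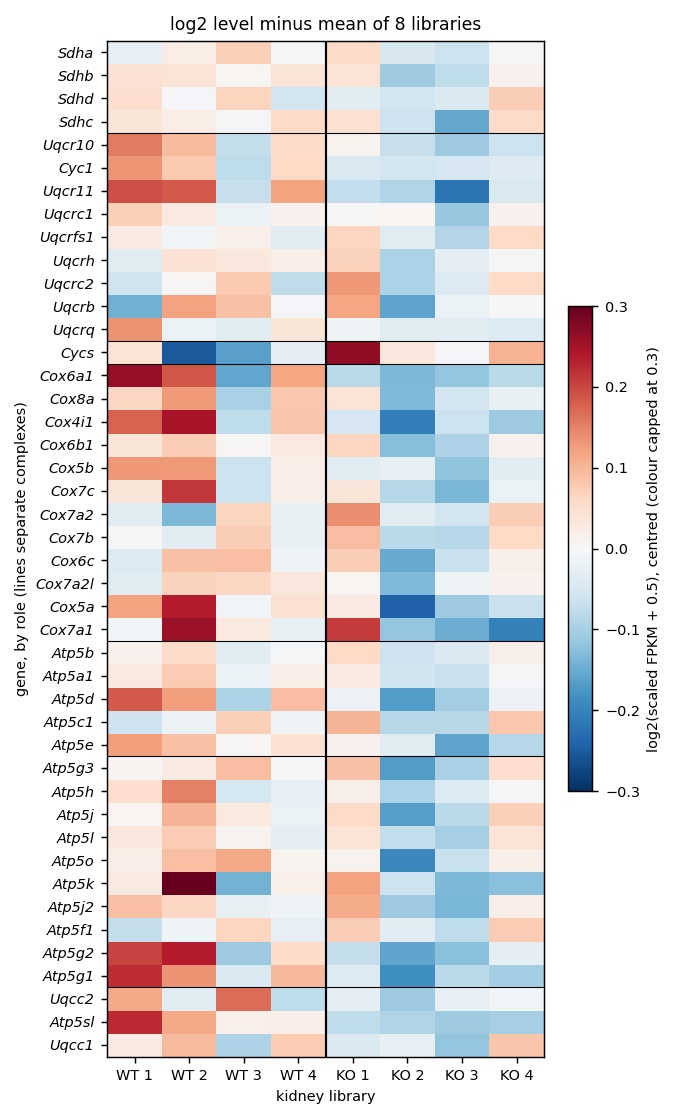
Log2 level of each gene (rows, by role) in each kidney (columns) minus its mean over the 8 kidneys, with colour capped at 0.3. KO replicates 2 and 3 are below the mean for most genes and WT replicates 1 and 2 above it, while WT replicate 3 is low for a subset that includes Cox6a1, Cox4i1, Uqcr11 and Atp5g2.

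The base composition of the transcripts moved with these differences. Over all tested genes, the rank correlation of a gene's centred level with its GC content was 0.46, 0.39, -0.24 and 0.29 in the 4 WT libraries and -0.39, -0.07, -0.12 and -0.36 in the 4 KO libraries, so WT replicate 3 was on the side of the KO libraries. The genes of complexes II to V ranged from 36.7% to 63.3% GC. Across the 50, log2 fold change and GC content had a Spearman's rho of -0.47 and a Pearson's r of -0.50, where all tested genes had a rho of -0.44. These are descriptions across genes that share the same 8 libraries. Of the 44 genes above 20 scaled FPKM, the 22 with more than 49.9% GC had a median log2 fold change of -0.09 with 6 lower at an unadjusted p under 0.05, and the 22 at or under it had -0.05 with 3 lower and 1 higher.

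With the GC and length trends of each library removed, the point estimates remained mostly below 0, in 40 of 50 genes with a median of -0.07. 12 genes were then lower at an unadjusted p under 0.05 (against 7.06% of all genes) and 0 higher (against 4.32%). The lowest adjusted p by limma was 0.274. These backgrounds are not matched for level, and before the removal 15.8% of genes above 20 scaled FPKM were lower. 6 of these 12 were among the 9 above, namely Uqcr11, Cox4i1, Cox5a, Atp5e, Atp5g1 and Atp5sl. The others, named after their values in this fit were seen, were Uqcrb, Cox5b, Cox7c, Cox7b, Atp5l and Atp5o. Atp5d at -0.06, Cox6a1 at -0.11 and Atp5g2 at -0.08 no longer reached it, and these 3 genes have GC contents of 59.3%, 62.7% and 63.3%. Cox5a, at 41.6% GC, went from -0.20 to -0.30.

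**Figure D5:**
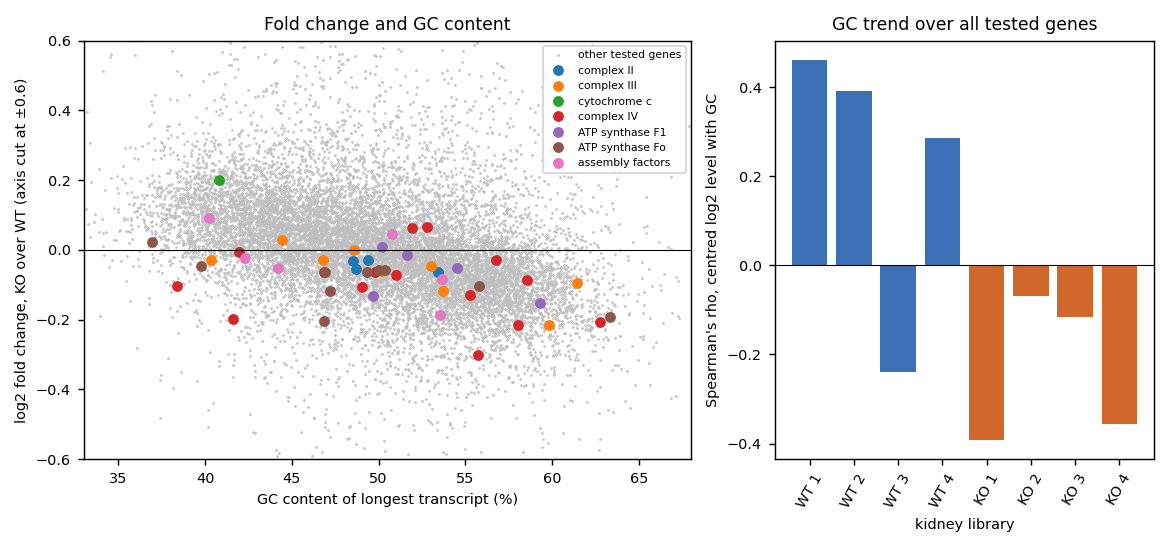
Left, log2 fold change of KO over WT against GC content (%) of the longest transcript for the genes of complexes II to V and all tested genes, with the vertical axis limited to 0.6 each way; right, Spearman's rho of centred level with GC content over all tested genes in each library. The slope runs downward (rho of -0.47 over the 50 genes), and the bars are positive in WT replicates 1, 2 and 4 and negative in the other 5 libraries.

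Of the 6 mitochondrially encoded partners of these subunits, 5 had point estimates above 0 and 3 were higher at an unadjusted p under 0.05, where 7.18% of all tested genes were. mt-Co2 and mt-Co3, core subunits of complex IV, and mt-Atp6, the proton channel subunit of ATP synthase, were at 204 ± 31.5, 135 ± 26.1 and 110.2 ± 12.5 scaled FPKM in WT and at 288 ± 42.0, 213 ± 37.8 and 167 ± 21.6 in KO. The groups did not overlap for any of the 3, as for 4.34% of all tested genes on the higher side. Their log2 fold changes were 0.50, 0.66 and 0.60, and none passed the threshold (lowest adjusted p of 0.108 by limma, for mt-Atp6). These transcripts share sequence with nuclear copies, and the part of such copies in their counts was not tested. The catalytic subunit mt-Co1 was counted at a far higher level (17839.5 ± 1247 in WT). It and mt-Cytb of complex III both had log2 fold changes of 0.03, and mt-Atp8 had -0.22. Their adjusted p by limma were 0.920, 0.922 and 0.833.

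Factors outside the 52 genes that build or serve the same complexes showed no call either. Of 24 tested complex IV assembly and translation factors, 4 were lower and 1 higher at an unadjusted p under 0.05, against backgrounds of 8.25% and 7.18% of all tested genes that hold for the lists after it too. Pet100, a complex IV assembly factor, had the smallest p, at 14.9 ± 2.22 in WT and 11.9 ± 0.735 in KO (log2 fold change -0.30, limma adjusted p = 0.237). Of 4 complex III factors and the heme lyase together, 1 was lower and 1 higher. The lower was Bcs1l, which inserts the Rieske protein, at 12.2 ± 0.415 in WT and 10.5 ± 0.270 in KO with no overlap (log2 fold change -0.20, limma adjusted p = 0.159). The higher was the heme lyase Hccs, at 5.29 ± 0.374 and 6.17 ± 0.182, also with no overlap (0.21, limma adjusted p = 0.215). Without overlap, 4.28% of all tested genes were lower and 4.34% higher.

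Of 9 other ATP synthase and ATP export genes, 3 were lower at an unadjusted p under 0.05 (against 8.25% of all tested genes and 15.8% of those above 20 scaled FPKM), and the smallest p was that of Usmg5, an ATP synthase membrane subunit outside the Atp5 names, at 386 ± 44.4 in WT and 323 ± 14.8 in KO (log2 fold change -0.25, limma adjusted p = 0.227). Of 13 tested regulators of mitochondrial biogenesis, 1 was higher and 1 lower. The higher was Gabpa, the DNA-binding subunit of the ETS factor GABP, at 8.52 ± 0.576 in WT and 9.90 ± 0.280 in KO with no overlap (log2 fold change 0.21, limma adjusted p = 0.191). The lower was Pprc1, at 3.10 ± 0.0938 and 2.58 ± 0.272, also with no overlap (-0.23, limma adjusted p = 0.250). Without overlap, 4.34% of all tested genes were higher and 4.28% lower. Gabpa and Atp5j lie head to head on chromosome 16 and their spans overlap, so reads at the shared end cannot be assigned without strand. The ETS motif was found at 14 of 42 genes (33.3%). Of these 14, Uqcr11, Cox6a1 and Atp5e were lower at an unadjusted p under 0.05, where 18% of the 50 tested genes were. Atp5d, Atp5g1, Atp5g2, Atp5sl and Cox5a, also lower at that p, had no ETS motif in the promoters searched. A link between Gabpa and these genes was not tested.

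Sequence shared between genes limits several levels. Of the 52 genes, 23 share no run of 50 bases with transcripts of other genes, 19 share more than 10% and 3 share more than 50% (Atp5l at 84.9%, Sdhaf1 at 69.0% and Atp5o at 50.3%). For Atp5o, the entry that shares most is a second one under the same symbol, so its share is not only with genes of other names. Of the 9 genes lower at an unadjusted p under 0.05, Atp5d, Atp5e and Atp5sl share none, Uqcr11, Atp5g1, Cox6a1, Cox4i1 and Atp5g2 share 10.9% to 14.8%, and Cox5a shares 32.05%. Atp5d, Cox4i1 and Cox5a also overlap the span of a neighbour (Dos, Emc8 and Gm26631), as 12 of the 52 genes do. The lengths behind the FPKM also matter for levels between genes: Atp5e and Cox6c were divided by 4.03 and 4.12 times the length of their longest coding transcript, so their levels beside other genes are understated, while comparisons between kidneys are not touched.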

How the data were processed

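The deposited table gives FPKM for 23386 genes in 8 libraries, with gene length, position and type, per the file headers. The submitters' processing notes name CASAVA, STAR 2.5, HTSeq 0.6.1, DESeq2 and the build mm10 without roles; for the annotation release and strandedness these notes and the labels give nothing. The product of FPKM and gene length was, for 100% of values, a whole multiple of the smallest step of its library (tolerance 0.01), and reads per gene were recovered from it.

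Each library was divided by a median-ratio factor, and genes averaging 0.5 scaled FPKM or more over the libraries were tested. The log2 of the value plus 0.5, a scale that understates changes of low genes, was modelled on genotype alone by limma 3.58.1 under R 4.3.3, using lmFit and eBayes with a trend, two-sided, with Benjamini-Hochberg adjustment over 14030 genes. The p-values set the difference of the genotypes against the spread between these animals, which limma moderates with a trend over all tested genes. The scripts were checked on simulated data.

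GC content, for 99.5% of tested genes, and shared 50-base runs came from GENCODE vM21 transcripts, and GC and length trends were removed per library by natural splines of 4 degrees of freedom. Intervals of read ratios are exact and conditional on the total. The genes, gene lists, motifs and tests were chosen with earlier results of these data known, and the NRF1 motif was shortened by 1 base after its matches were seen. Genes named with values were, in each role group, the gene of highest level and the 3 of smallest p, the isoform families and the genes under the filter; in each other list of complex factors, the gene of smallest p, and the mitochondrially encoded subunits. Others were added for their role, motif or value. Lists of kidney cell type, muscle and fat markers held no gene past the threshold. Alternatives were other pseudocounts, filters, scalings and limma settings, voom, trend removal and leaving out each library.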

Additional observations from a re-analysis of the deposited data

Results flagged for a closer look

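In 2 of 60 groups of 4 kidneys checked over 30 genes, 1 kidney lay far from the other 3 relative to the range of its group, and chance alone flags about 1 in 20 such groups. Sdhb was at 271 scaled FPKM in WT replicate 3, against 277.5 to 278.5 in the other WT kidneys, a gap that is large only beside their close spacing. Cox7a1 was at 40.2 in WT replicate 2, against 32.97 to 34.2 in the other WT kidneys.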

How the results depend on the processing

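Under each of 20 alternatives, 0 genes of complexes II to V passed the threshold. The counts at an unadjusted p under 0.05 moved with single libraries. Leaving out each, genes lower in KO numbered 3 (without WT replicate 2) to 13 (without WT replicate 3), and genes higher 0 to 1. In the fits with 3 and 13, 5.72% and 12.6% of all tested genes were lower at that p. Across the libraries left out, 4.76% to 9.18% of all tested genes were higher. No filter on low values gave 2 higher (against 5.94% of all genes), and removal of GC and length trends 0 (against 4.32%). Trend removal together with leaving out WT replicate 3 was chosen after seeing the data. It gave 15 lower (against 7.67% of all genes) and 0 higher (against 4.21%). The share of the 50 genes below 0 went from 41 to 34 with upper-quartile scaling and to 31 with quantile normalization. In these 2 fits the median of all tested genes was 0.04 and -0.0035, and 4.68% and 7.83% of them were lower at that p, against 7 of the 50 in each. Of 558 gene values for 28 genes, 537 kept sign and side of the threshold and 21 turned sign, in 7 genes, with no cause tested. With upper-quartile scaling these were Sdha (0.0098) and Atp5b (0.026). With quantile normalization they were Sdha (0.043), Sdhb (0.0026) and Atp5b (0.020). With trends removed they were Cyc1 (0.016), Cox4i2 (0.021), Atp5b (0.016) and Atp5a1 (0.0065). With trends removed and WT replicate 3 left out they were Cyc1 (0.023), Cox6a2 (-0.016), Atp5b (0.0088) and Atp5a1 (0.0093). Leaving out each library took Cox6a2 from -0.089 to 0.27, Cox4i2 from -0.090 to 0.078 and Atp5b from -0.038 to 0.0030; without KO replicate 2, Cox4i2 was under the filter. The planned fits of edgeR and DESeq2 to the recovered reads were not run, because the deposited unit is FPKM; the planned fit of limma voom was. No paired analysis was run, because the groups share no animal number in the labels. Any litters shared by the groups were not modelled. Depth was 174 to 61718 reads per gene and library above 20 scaled FPKM, so the number of animals limits the precision for most genes there. Cox7a1 had the fewest of these, 174 to 259. Few reads also limit it for Cox6b2 (60 to 130), Cox6a2 (30 to 60) and Sdhaf1 (34 to 65), and most of all for Cox4i2, Cox7b2 and Cox8b.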
